A study of Mus musculus with 8 samples.

Results

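The FGF ligands and receptors examined here are 10 genes, 6 ligands (Fgf1, Fgf2, Fgf7, Fgf9, Fgf10 and Fgf18) and 4 receptors (Fgfr1, Fgfr2, Fgfr3 and Fgfr4), picked by symbol from the 23420 genes in the count tables. Polyadenylated RNA of mouse uterine stromal cells labelled day 3 gave 8 sequencing libraries: 4 carry the label Erbb3f/f and 4 the label Erbb3d/d. In mouse notation f is commonly a loxP-flanked allele and d the allele after Cre deletion, and the ERBB receptor tyrosine kinase ERBB3 is the product of Erbb3. The labels name no Cre line, do not state the event that starts the count of days, how the stroma was isolated or whether animals were pooled, and give no treatment. The series title places the comparison in a study of Erbb3 in the stroma and the formation of uterine glands.

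FGF ligands are secreted proteins that bind receptor tyrosine kinases together with heparan sulphate on the cell surface and signal largely through RAS and ERK. In the mouse uterus before implantation, FGFs made by the stroma act on receptors of the overlying epithelium and promote its proliferation, and progesterone restrains this through the stromal transcription factor HAND2, which represses several FGF genes. Fgf7 and Fgf10 act mainly on the epithelial splice form of Fgfr2, while Fgf9 and Fgf18 prefer the mesenchymal receptor forms. Counts per gene do not separate these splice forms.

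The libraries held between 8578575 and 12854367 reads in genes. Erbb3 itself was no lower under the label Erbb3d/d, at 7.37 to 17.7 CPM (normalised read count, scaled to library size) against 7.40 to 12.3 CPM in Erbb3f/f. The quasi-likelihood test of edgeR put its log2 fold change at 0.53 (SE 0.28; adjusted p 0.485). Directions below therefore follow the labels only. Reads summed over all exons cannot show the loss of single exons. All 9 stromal markers were detected, with a summed level of 10226 to 12624 CPM in the libraries labelled Erbb3f/f and 8019 to 11413 CPM in those labelled Erbb3d/d. RNA of other cells was present as well: all 12 epithelial markers were detected, with a summed level of 920.1 to 1458 CPM in Erbb3f/f and 1386 to 2253 CPM in Erbb3d/d. None of the 12 epithelial, 9 smooth muscle, 7 endothelial, 5 mesothelial and 9 stromal markers had 0 reads in every library. Summed smooth muscle markers ran from 1275 to 2344 CPM in Erbb3f/f and from 1989 to 4639 CPM in Erbb3d/d, and summed endothelial markers from 214 to 438 CPM and from 209 to 457 CPM. Summed immune markers, 6 of 7 listed being in the tables, ran from 913 to 2332 CPM and from 1290 to 1654 CPM. In bulk RNA, fewer cells of a type and less RNA per cell cannot be told apart.

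In this RNA, Fgfr2 and Fgfr1 had the highest means of the 10 genes per kilobase, and Fgf1 and Fgf10 led the ligands by mean in the libraries labelled Erbb3f/f. All 10 genes passed the filter on low counts. Levels of different genes are compared as CPM per kilobase of exonic length. On that scale Fgfr2 was highest in the libraries labelled Erbb3f/f, at 15.6 ± 3.71 CPM per kilobase (SD, n = 4), followed by Fgfr1 at 13.1 ± 0.567 (SD, n = 4). Their ranges overlapped, 11 to 18.7 for Fgfr2 and 12.7 to 13.9 for Fgfr1. Fgf1 came next at 8.62 ± 4.94 and Fgf10 at 6.01 ± 0.549 CPM per kilobase (SD, n = 4 each), and these ranges overlapped too. In replicate 3 of each label Fgf1 lay above Fgfr2 and Fgfr1. It was at 15.5 against 11 and 13 in Erbb3f/f, and at 19.7 against 17.1 and 14.6 in Erbb3d/d. The range of Fgf10, 5.29 to 6.62, lay above that of the next gene, Fgf18, 0.492 to 1.94. The lower 6 genes, in the order Fgf18, Fgf7, Fgfr3, Fgf9, Fgfr4 and Fgf2, had means of 1.49 to 0.369 CPM per kilobase. Neighbours within these 6 overlapped in their ranges. In the libraries labelled Erbb3d/d the leading 3 genes kept their order by mean, while Fgf18, at 5.03 ± 2.76, stood above Fgf10, at 4.35 ± 0.848 CPM per kilobase (SD, n = 4 each), again with overlapping ranges.

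**Figure D1:**
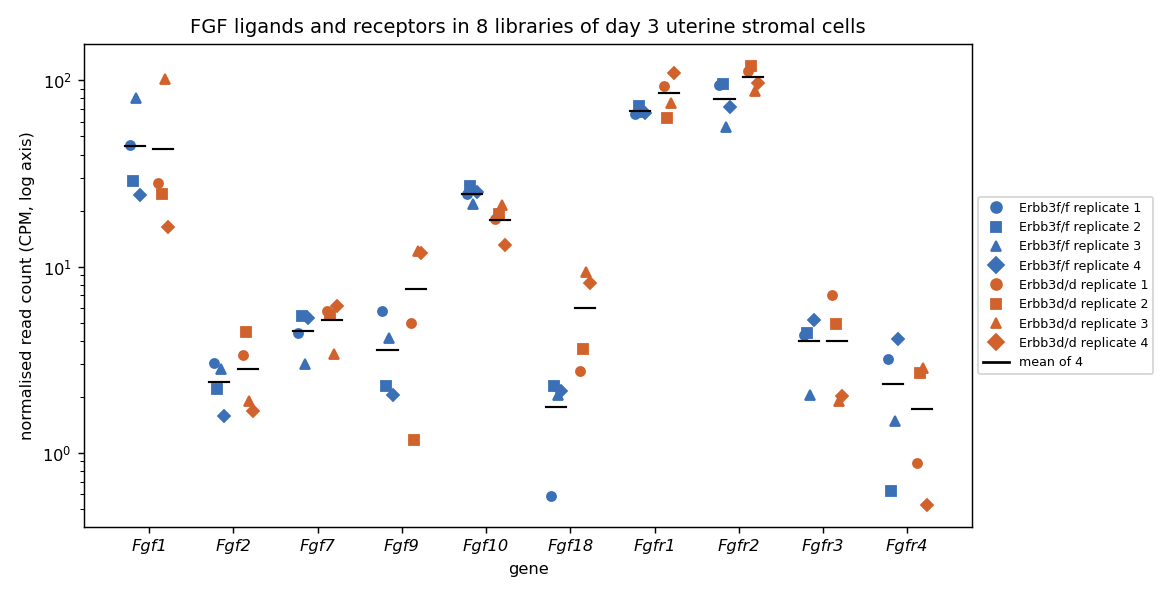
Normalised read count (CPM, log axis) of the 10 genes in each of the 8 libraries. Symbols mark the replicate, blue is Erbb3f/f, orange is Erbb3d/d and black bars are means of 4. The points of Fgf18 and Fgf10 do not overlap between the labels, and Fgf1 is highest in replicate 3 of both labels.

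Between the labels, 0 of the 10 genes passed the quasi-likelihood test of edgeR at an adjusted p under 0.05, as did 0% of the 14598 genes tested. At an unadjusted p under 0.05 there were 3 of 10, with Fgf18 and Fgfr2 higher and Fgf10 lower in Erbb3d/d, beside 11.6% of all genes tested in either direction. DESeq2 called 1 of the 10, Fgf18, beside 1.78% of all genes in either direction and 1.39% as higher. The CPM ranges of the labels did not overlap for 2 of the 10, Fgf18 (higher) and Fgf10 (lower), beside 5.04% of all genes, 2.56% higher and 2.48% lower. The median log2 fold change of the 10 genes was 0.21, beside -0.01 over all genes tested.

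Fgf18 was the ligand with the smallest p. It encodes a secreted FGF best known from lung and skeletal development, and lies at 33116970 to 33147400 of chromosome 11 (minus strand; RefSeq annotation of GRCm38.p6), with 6 merged exons in GENCODE vM21. The Erbb3f/f replicates 1 to 4 held 6, 22, 26 and 19 reads of it, or 0.584, 2.30, 2.04 and 2.15 CPM. The Erbb3d/d replicates 1 to 4 held 28, 31, 119 and 93 reads of it, or 2.75, 3.62, 9.38 and 8.16 CPM. Every Erbb3d/d library lay above every Erbb3f/f library. Erbb3d/d replicates 1 and 2 were nearer to the highest Erbb3f/f library, at 2.30 CPM, while replicates 3 and 4 were far higher. Mean levels were 1.77 ± 0.797 CPM (SD, n = 4) for Erbb3f/f and 5.98 ± 3.28 CPM (SD, n = 4) for Erbb3d/d. edgeR put the log2 fold change of Fgf18 at 1.76 (SE 0.50; 95% interval 0.65 to 2.87; adjusted p 0.284), and the adjusted p of DESeq2 was 0.0374. The two-sided exact permutation test gave p = 0.0286, the smallest that 4 against 4 libraries allow. Without Erbb3d/d replicates 3 and 4, an alternative chosen after the data were seen, the log2 fold change was 0.85 (SE 0.56).

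The libraries with high Fgf18 also had a high summed level of epithelial markers and a low summed level of stromal markers. Summed epithelial markers reached 2168 and 2253 CPM in Erbb3d/d replicates 3 and 4, against at most 1458 CPM in any other library. Of the 12 epithelial markers, 10 had a log2 fold change above 0 and 0 were called in edgeR's test. Foxa2 and Cldn3 went the other way, at -0.52 (SE 0.49) and -0.22 (SE 0.15). Both were at their lowest of all libraries in Erbb3d/d replicate 3, at 2.84 and 191 CPM. Summed stromal markers were 9732 and 8019 CPM in Erbb3d/d replicates 3 and 4 and at least 10226 CPM in the others. Not every stromal marker followed the sum. Of the 9, 1 had a log2 fold change above 0, Dcn, at 1123 and 1474 CPM in these replicates against at most 1052 CPM in Erbb3f/f. The collagen genes Col3a1 and Col1a1 weigh most in the sum, with means of 3228 and 2804 CPM over all libraries. Col1a1 was at 3151 CPM in Erbb3d/d replicate 3, within the Erbb3f/f range of 2311 to 3476 CPM. With the mean of the epithelial markers as a covariate the log2 fold change of Fgf18 was 0.95 (SE 0.68). With that of the stromal markers, added with the data in view, it was 0.59 (SE 0.56), and with that of the smooth muscle markers 2.57 (SE 0.63). The stromal markers include Hand2, named above as a repressor of FGF genes, and Nr2f2, so that covariate is not a measure of cell share alone. The part of these cell types in the difference was not tested beyond these values.

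Fgf9, a ligand made by epithelium or mesenchyme depending on the organ, was high in the same pair of libraries. It lies at 58070671 to 58112854 of chromosome 14 (plus strand). Its level was 5.75, 2.30, 4.16 and 2.04 CPM in Erbb3f/f replicates 1 to 4 and 5.01, 1.17, 12.1 and 11.8 CPM in Erbb3d/d replicates 1 to 4. The labels overlapped: the lowest of all 8 libraries, like the highest, was labelled Erbb3d/d. edgeR put the log2 fold change of Fgf9 at 1.08 (SE 0.62; adjusted p 0.528). It was -0.19 (SE 0.62) without Erbb3d/d replicates 3 and 4 and -0.11 (SE 0.88) with the epithelial mean as a covariate.

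**Figure D2:**
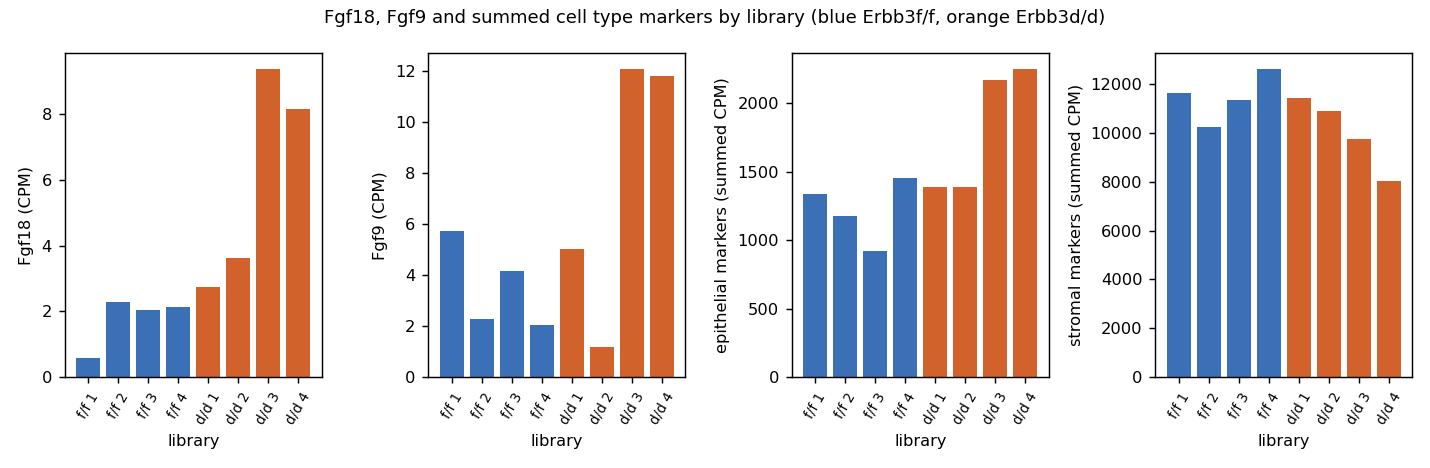
Bars give, for each of the 8 libraries, the level of Fgf18 and of Fgf9 (CPM) and the summed level of 12 epithelial and of 9 stromal markers (summed CPM), in blue for Erbb3f/f and orange for Erbb3d/d. In Erbb3d/d replicates 3 and 4 the first 3 panels are at their highest and the stromal sum is at its lowest, 9732 and 8019 CPM.

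Fgf10, the mesenchymal ligand of the epithelial form of Fgfr2 and a driver of branching in lung and gland development, was lower in Erbb3d/d. It lies at 118714699 to 118792573 of chromosome 13 (plus strand), with 3 merged exons. Its level was 24.7, 27.2, 21.8 and 25.2 CPM in Erbb3f/f replicates 1 to 4 and 18.0, 19.2, 21.3 and 13.1 CPM in Erbb3d/d replicates 1 to 4. The labels did not overlap, although Erbb3d/d replicate 3, at 21.3 CPM, came close to the lowest Erbb3f/f library, at 21.8 CPM. Mean levels were 24.7 ± 2.26 CPM (SD, n = 4) for Erbb3f/f and 17.9 ± 3.49 CPM (SD, n = 4) for Erbb3d/d. edgeR put the log2 fold change of Fgf10 at -0.47 (SE 0.16; 95% interval -0.83 to -0.10; adjusted p 0.337). The adjusted p of DESeq2 was 0.210, and the exact permutation test gave p = 0.0286. The estimate was -0.45 when the epithelial mean was the covariate, -0.45 for smooth muscle and -0.33 for stroma, and -0.41 without Erbb3d/d replicates 3 and 4. Erbb3d/d replicate 4 had both the lowest Fgf10 and the lowest summed stromal level, 8019 CPM, and the part of the stromal share in the difference was not tested beyond these values.

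The sequences upstream of Fgf18 and Fgf10 are shown because these were the genes of the family whose labels separated, in opposite directions. Each run is the 250 bases before the RefSeq gene start, read 5′ to 3′ on the gene's strand, at chr11:33147401-33147650 (minus strand) and chr13:118714449-118714698 (plus strand) of GRCm38.p6. Capitals mark the E-box CANNTG, the core recognised by basic helix-loop-helix factors such as HAND2, and the GC box GGGCGG, searched on both strands.
Fgf18: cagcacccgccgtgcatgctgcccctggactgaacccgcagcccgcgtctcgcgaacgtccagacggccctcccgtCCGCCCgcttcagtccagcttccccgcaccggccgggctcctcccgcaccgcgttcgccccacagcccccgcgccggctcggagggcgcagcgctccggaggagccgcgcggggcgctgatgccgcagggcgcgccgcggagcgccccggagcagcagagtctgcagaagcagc
Fgf10: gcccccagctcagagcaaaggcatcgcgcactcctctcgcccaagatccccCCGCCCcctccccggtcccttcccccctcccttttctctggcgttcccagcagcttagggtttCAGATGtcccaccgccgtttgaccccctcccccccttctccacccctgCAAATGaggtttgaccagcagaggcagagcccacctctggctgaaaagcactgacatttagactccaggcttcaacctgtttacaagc
The Fgf10 window held 2 E-boxes, CAGATG starting 136 bases and CAAATG starting 88 bases before the gene start. The first is the reverse complement of CATCTG, a form of E-box bound by HAND factors, which is found on either strand in 14.5% of the 32817 upstream windows of the same length. The Fgf18 window held no E-box, and 66.2% of all windows held at least 1. Each window held 1 GC box, as CCGCCC, starting 174 bases before the start of Fgf18 and 199 bases before that of Fgf10, and 32.7% of all windows had a match. Neither window held TATAAA, which 12.4% of windows did. The GC content was 77.2% upstream of Fgf18 and 61.2% upstream of Fgf10, against a median of 52.4% over all windows. These matches describe letters in a window and show no binding.

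Set against each other per kilobase, Fgf18 was the ligand of the 6 whose share did not overlap between the labels. Fgf18 made up 2.68% to 12.1% of the summed ligand level in the Erbb3f/f libraries and 14.9% to 38.1% in the Erbb3d/d libraries. Fgf10 made up 21.3% to 40.9% and 14.0% to 31.0%, with overlap. Fgf18 exceeded Fgf10 per kilobase in Erbb3d/d replicates 3 and 4, at 7.90 against 5.17 and 6.87 against 3.18 CPM per kilobase, and lay below it in the other 6 libraries. The share of Fgf18 rests on a short exonic length of 1187 bases, and no test was made of these shares.

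Fgf1, which binds all FGF receptors and lacks a classical secretion signal, had the widest CPM range of the 6 ligands within each label. It lies at 38838672 to 38929470 of chromosome 18 (minus strand). Its level was 45.1, 28.9, 80.6 and 24.1 CPM in Erbb3f/f replicates 1 to 4 and 28.1, 24.4, 102 and 16.3 CPM in Erbb3d/d replicates 1 to 4. The highest library of each label was replicate 3, and the labels overlapped over nearly the whole range. By edgeR the log2 fold change of Fgf1 was -0.06 (SE 0.60; 95% interval -1.43 to 1.30; adjusted p 0.978). Without Erbb3d/d replicate 3 it was -0.96 (SE 0.41) and without Erbb3f/f replicate 3 it was 0.39 (SE 0.62). It was also above 0 without Erbb3d/d replicate 1, 2 or 4, at 0.09, 0.13 and 0.22, so the sign was not set.

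Mesothelial markers followed the same libraries. Among 14597 other genes, the one whose standardised log2 CPM values over the 8 libraries differed least from those of Fgf1 was Upk1b, with a mean absolute difference of 0.239 SD, and Upk1b is a marker of mesothelium, the layer that covers the outer uterine wall. Fahd2a and Mvb12b, which are not among the listed mesothelial markers, came next at 0.25 and 0.252 SD, nearly level with Upk1b. Fgf1 was added to this ranking after its values were seen. The other mesothelial markers ranked 11 (Upk3b), 24 (Msln), 43 (Lrrn4) and 9463 (Wt1, which uterine stroma also expresses). Upk3b had 39.0, 22.3, 72.3 and 22.5 CPM in Erbb3f/f replicates 1 to 4 and 24.5, 13.3, 59.5 and 23.8 CPM in Erbb3d/d replicates 1 to 4. Msln had 16.7 and 10.2 CPM in the replicates numbered 3 and 1.63 to 5.26 CPM in the others. All 4 markers other than Wt1 were thus highest in replicate 3 of each label, while Wt1 stayed between 244 and 307 CPM. The summed level of the 5 markers, most of it Wt1, was 293 to 434 CPM in Erbb3f/f and 277 to 389 CPM in Erbb3d/d. With their mean as a covariate, added with the data in view, the log2 fold change of Fgf1 was 0.24 and its SE was 0.26, against 0.60 without the covariate. A smaller SE was not particular to this covariate. The replicate block gave -0.27 (SE 0.18), and leaving out both libraries numbered 3 gave -0.51 (SE 0.28). The part of mesothelium in the level of Fgf1 was not tested beyond these values.

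**Figure D3:**
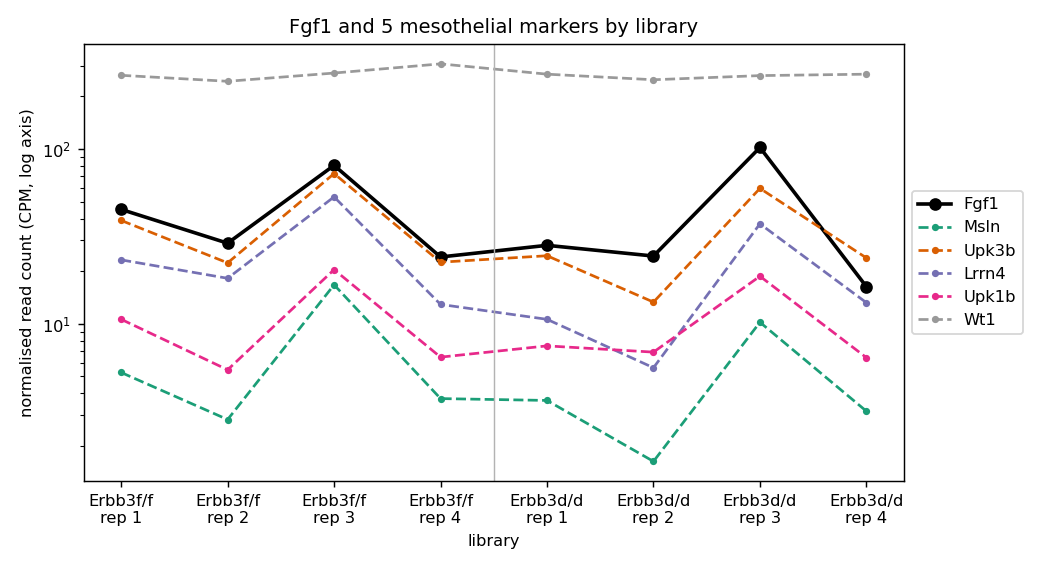
Normalised read count (CPM, log axis) of Fgf1 (black) and 5 mesothelial markers (coloured) in each library. Lines only join the points of a gene. Fgf1, Msln, Upk3b, Lrrn4 and Upk1b peak in replicate 3 of each label, and Wt1 stays between 244 and 307 CPM.

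The remaining ligands were low and did not differ past the threshold. Fgf7, the keratinocyte growth factor made by mesenchyme, lies at 126034658 to 126091185 of chromosome 2 (plus strand). It had 4.38, 5.45, 2.99 and 5.31 CPM in Erbb3f/f replicates 1 to 4 and 5.80, 5.48, 3.39 and 6.14 CPM in Erbb3d/d replicates 1 to 4, so replicate 3 was lowest in both labels. Its log2 fold change was 0.20 (SE 0.30; edgeR adjusted p 0.824). Fgf2, basic FGF, lies at 37348477 to 37410106 of chromosome 3 (plus strand). It had 3.02, 2.20, 2.83 and 1.58 CPM in Erbb3f/f and 3.34, 4.43, 1.89 and 1.67 CPM in Erbb3d/d, from 14 to 38 reads a library, with wide overlap. Its log2 fold change was 0.21 (SE 0.41; edgeR adjusted p 0.874). In GENCODE vM21, 640 of its 6525 exonic bases (9.81%) are shared with Nudt6 on the other strand, and without strand the reads of such bases cannot be told apart.

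Among the receptors, Fgfr2 and Fgfr1 held nearly all of the receptor RNA, together in every library, with Fgfr2 at 44.1% to 62.6% and Fgfr1 at 32.2% to 52.3% of the summed level per kilobase. Fgfr2 lies at 130162451 to 130266808 of chromosome 7 (minus strand). It had 94.4, 95.6, 56.2 and 72.0 CPM in Erbb3f/f replicates 1 to 4 and 113, 119.6, 87.5 and 96.6 CPM in Erbb3d/d replicates 1 to 4. Of the Erbb3d/d libraries, 3 were above every Erbb3f/f library, and replicate 3 fell among them. By edgeR the log2 fold change of Fgfr2 was 0.39 (SE 0.17; 95% interval 0.01 to 0.77; adjusted p 0.426), and the exact permutation p was 0.114. It was 0.06 (SE 0.18) with the mean of the smooth muscle markers as a covariate, 0.41 (SE 0.24) with the epithelial mean and 0.25 (SE 0.14) without Erbb3f/f replicate 3. The stromal mean as a covariate gave 0.54 (SE 0.23) and the replicate block 0.41 (SE 0.09). Leaving out Erbb3d/d replicates 3 and 4 gave 0.55 (SE 0.2).

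Fgfr1, the main receptor of mesenchyme, lies at 25518759 to 25575718 of chromosome 8 (plus strand). It had 66.0, 72.7, 68.0 and 66.9 CPM in Erbb3f/f replicates 1 to 4 and 93.7, 62.8, 76.0 and 109 CPM in Erbb3d/d replicates 1 to 4. The Erbb3f/f libraries were close together, and Erbb3d/d replicate 2 was the lowest of all 8 while the other 3 were above the Erbb3f/f range. By edgeR the log2 fold change of Fgfr1 was 0.32 (SE 0.15; 95% interval -0.01 to 0.66; adjusted p 0.445), and the exact permutation p was 0.229. With a marker mean as a covariate it was 0.16 (epithelial, SE 0.20), 0.13 (smooth muscle, SE 0.21) and 0.05 (stromal, SE 0.18).

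The other receptor genes were scarce. Fgfr3, at 33721724 to 33737068 of chromosome 5 (plus strand), had 4.29, 4.4, 2.04 and 5.20 CPM in Erbb3f/f replicates 1 to 4 and 7.08, 4.90, 1.89 and 2.02 CPM in Erbb3d/d replicates 1 to 4. Its spread within Erbb3d/d was wider than any difference between the labels, with a log2 fold change of -0.01 (SE 0.47; edgeR adjusted p 0.997), and 9.93% of its exonic length is shared with G630022F23Rik on the other strand. Fgfr4, at 55152818 to 55168759 of chromosome 13 (plus strand), had 3.21, 0.628, 1.49 and 4.07 CPM in Erbb3f/f and 0.884, 2.68, 2.84 and 0.526 CPM in Erbb3d/d. It rested on 6 to 36 reads a library, overlapped fully, and had a log2 fold change of -0.43 (SE 0.65; edgeR adjusted p 0.830).

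By likeness over the 8 libraries, the 3 genes nearest to Fgf18, the family gene with the smallest p, were Nanos1, Ahr and Cdc20, at mean absolute differences of 0.154, 0.156 and 0.194 SD. Ahr, the aryl hydrocarbon receptor, had 25.4, 42.6, 35.4 and 41.5 CPM in Erbb3f/f and 48.4, 48.6, 77.7 and 85.6 CPM in Erbb3d/d replicates 1 to 4, with the same low Erbb3f/f replicate 1 and high Erbb3d/d replicates 3 and 4. The 3 nearest to Fgfr2, the gene with the largest mean, were Hecw2, Pcdh12 and Tspan18, at 0.201, 0.203 and 0.205 SD.

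Other FGF genes were rare in this RNA. Of the 16 other ligand or FGF-like genes listed, 4 passed the filter (Fgf11, Fgf12, Fgf13 and Fgf14, which encode intracellular FGF homologous factors) and 0 were called in edgeR's test. None of them had an unadjusted p under 0.05 in edgeR, and DESeq2 called 0. Fgf12 was the highest, at 3.22 ± 1.10 CPM (SD, n = 4) for Erbb3f/f and 4.08 ± 0.933 CPM (SD, n = 4) for Erbb3d/d. Fgf13 had the smallest p, with a log2 fold change of -0.92 (SE 0.51; edgeR adjusted p 0.517), and that of Fgf11 was 0.47 (SE 0.52). Fgf3, Fgf4 and Fgf15 had 0 reads in every library, which allows a level of up to 0.236 to 0.350 CPM, at 3 reads a library, for counting error only. The 9 others had at most 24 reads in any library.

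Genes that act with the receptors at the cell surface were examined next, from lists written with earlier results of these data known. Of 8 tested co-receptors and binding proteins, 0 were called in edgeR's test and 1 had an unadjusted p under 0.05 and higher level (12.5%, beside 6.64% of all genes). DESeq2 called 1, beside 1.78% of all genes in either direction. That gene, Fgfrl1, encodes an FGF receptor that lacks the kinase domain. It had 32.9, 31.5, 31.5 and 32.5 CPM in Erbb3f/f replicates 1 to 4 and 43.3, 36.2, 48.5 and 52.2 CPM in Erbb3d/d replicates 1 to 4. All Erbb3d/d libraries were above the narrow Erbb3f/f range, with a log2 fold change of 0.49 (SE 0.12; edgeR adjusted p 0.253, DESeq2 adjusted p 0.0379). It was 0.28 with the epithelial and 0.24 with the stromal covariate, and 0.31 without Erbb3d/d replicates 3 and 4. Without Erbb3d/d replicate 2 edgeR's adjusted p was 0.0351, and 1.75% of all genes were called in that fit. Lctl followed by p, at a log2 fold change of 0.66 (SE 0.41), and then Ncam1 at 0.46 (SE 0.33). Flrt2, which encodes a membrane protein that interacts with FGF receptors, was the highest of the list at 90.6 ± 20.8 and 95.1 ± 15.0 CPM (SD, n = 4 each).

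Heparan sulphate core proteins and enzymes were split. Of 22 tested, 0 were called in edgeR's test and 0 in DESeq2, 2 had an unadjusted p under 0.05 in edgeR and were higher, 2 were lower (9.09% each, beside 6.64% and 4.97% of all genes), and the median log2 fold change was 0.01. The transmembrane proteoglycan Sdc4 had 195 ± 31.2 CPM (SD, n = 4) for Erbb3f/f and 280.1 ± 55.3 CPM (SD, n = 4) for Erbb3d/d, with a log2 fold change of 0.52 (SE 0.16; edgeR adjusted p 0.294). The membrane-anchored glypican Gpc3 had 45.3 ± 11.3 and 29.1 ± 5.08 CPM (SD, n = 4 per label), with a log2 fold change of -0.64 (SE 0.19; edgeR adjusted p 0.296). Gpc1, the most abundant of the list, had 599.9 ± 96.3 and 449.6 ± 114 CPM (SD, n = 4 per label), with a log2 fold change of -0.42 (SE 0.18; edgeR adjusted p 0.417). All 3 overlapped between the labels. Sdc4 was at 0.15 with the epithelial and 0.25 with the stromal covariate, and at 0.26 without Erbb3d/d replicates 3 and 4. The same fits gave -0.11, -0.02 and -0.21 for Gpc1, and -0.39, -0.48 and -0.44 for Gpc3.

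The adaptors and kinases that carry the receptor signal to ERK showed small differences. Of 18 tested genes, 0 were called by edgeR or DESeq2 and 0 had an unadjusted p under 0.05 in edgeR, with a median log2 fold change of -0.02. Nras and the FGF receptor adaptor Frs2 had log2 fold changes of 0.12 (SE 0.08) and -0.12 (SE 0.08).

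Feedback genes that respond to FGF and other ERK signals leaned upward in the libraries labelled Erbb3d/d. Of 14 tested, 0 were called in edgeR's test, 7 had an unadjusted p under 0.05 and a higher level (50%, beside 6.64% of all genes) and 0 a lower level (beside 4.97%). DESeq2 called 2, Dusp4 and Etv5, beside 1.78% of all genes in either direction. With the replicate number as a block edgeR called Dusp4 (adjusted p 0.0381) and none of the 10 ligands and receptors, beside 0.356% of all genes. Without Erbb3d/d replicate 2 it called Dusp4 and Dusp6, beside 1.75% of all genes. The median log2 fold change was 0.40, and 11 of 14 were above 0. The CPM ranges did not overlap for 2 genes, Dusp4 and Etv5, both higher in Erbb3d/d, beside 2.56% of all genes in that direction. With the epithelial mean as a covariate, 1 of the 14 had an unadjusted p under 0.05 and a higher level, beside 2.14% of all genes in that fit, and the median was 0.22. Without Erbb3d/d replicates 3 and 4 there were 3 of 14, beside 3.01% of all genes, and the median was 0.26. The smooth muscle covariate also left 3 of 14, beside 5.45% of all genes (median 0.33), and the stromal covariate 3 of 14, beside 1.98% (median 0.37).

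Dusp4, a nuclear phosphatase that switches off ERK, had 5.36, 5.76, 8.17 and 9.16 CPM in Erbb3f/f replicates 1 to 4 and 11.5, 14.6, 25.5 and 21.3 CPM in Erbb3d/d replicates 1 to 4. As with Fgf18, Erbb3d/d replicates 3 and 4 were highest, and all 4 lay above the Erbb3f/f range. Its log2 fold change was 1.36 (SE 0.28; edgeR adjusted p 0.183, DESeq2 adjusted p 0.00147), and 0.94 with the epithelial covariate, 0.84 with the stromal one and 0.88 without Erbb3d/d replicates 3 and 4. Etv5, an ETS transcription factor induced by FGF signalling, had 29.4, 29.1, 26.9 and 33.1 CPM in Erbb3f/f and 44.2, 34.5, 41.8 and 42.0 CPM in Erbb3d/d, with Erbb3d/d replicate 1 the highest. Its log2 fold change was 0.46 (SE 0.12; edgeR adjusted p 0.258, DESeq2 adjusted p 0.0421). Etv1, of the same family, overlapped slightly and had a log2 fold change of 0.88 (SE 0.27; edgeR adjusted p 0.296). For Etv1 it was 0.48 with the epithelial covariate, 0.69 with the stromal one and 0.75 without Erbb3d/d replicates 3 and 4. Il17rd, which encodes an FGF receptor antagonist and was the most abundant of the list, had a log2 fold change of -0.17 (SE 0.12).

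**Figure D4:**
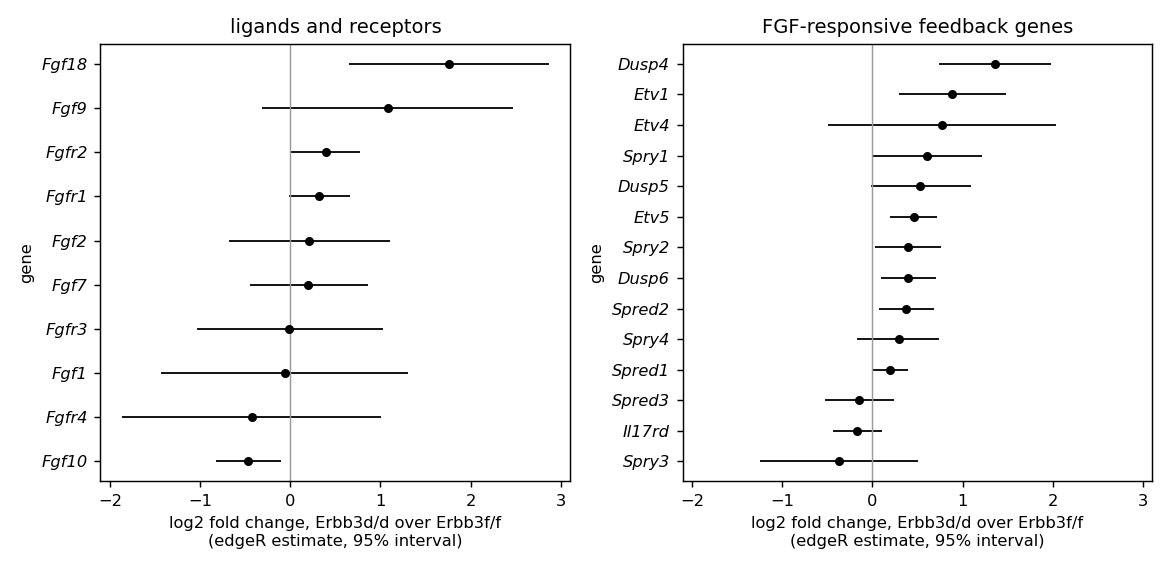
Log2 fold changes (Erbb3d/d over Erbb3f/f, edgeR estimates) with 95% intervals for the 10 ligands and receptors (left) and 14 feedback genes (right). Fgf18 at 1.76 and Dusp4 at 1.36 are the highest of each panel, Fgf10 is the ligand or receptor whose interval lies below 0, and 11 of 14 feedback genes are above 0.

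The last list holds genes listed as uterine regulators upstream of stromal FGFs, a role that was not tested here. Hand2 and Nr2f2 of this list are also among the stromal markers, so the stromal covariate contains them. Of 10 tested, 0 were called in edgeR's test. DESeq2 called 2, Bmp2 and Msx2, beside 1.78% of all genes in either direction. At an unadjusted p under 0.05 in edgeR, 3 had a higher and 1 a lower level (30% and 10%, beside 6.64% and 4.97% of all genes). The median log2 fold change was -0.30, and 6 of 10 were below 0. With the replicate block the count was 3 higher and 5 lower, beside 8.1% and 6.72% of all genes in that fit. Without Erbb3d/d replicate 2 it was likewise 3 higher and 5 lower, beside 9.97% and 8.91% of all genes. Hand2 had 346, 261, 356 and 339 CPM in Erbb3f/f replicates 1 to 4 and 237, 389, 241 and 171 CPM in Erbb3d/d replicates 1 to 4. It overlapped between the labels, with the lowest value of all in Erbb3d/d replicate 4 and the highest in Erbb3d/d replicate 2, and had a log2 fold change of -0.33 (SE 0.22; edgeR adjusted p 0.597). Pgr, the progesterone receptor gene and the most abundant of the list, had a log2 fold change of -0.32 (SE 0.15; edgeR adjusted p 0.452). Msx1 and Msx2, homeobox genes of the preimplantation uterus, had log2 fold changes of 0.54 (SE 0.19) and 1.56 (SE 0.41). For Msx1 this was 0.11 with the epithelial and 0.20 with the stromal covariate, and 0.30 without Erbb3d/d replicates 3 and 4, the libraries with the highest epithelial marker sums. For Msx2 the same fits gave 0.79, 0.81 and 0.90. Msx2 had 6.53, 14.9, 10.6 and 19.7 CPM in Erbb3f/f and 22.4, 25.4, 64.4 and 39.0 CPM in Erbb3d/d, with no overlap and Erbb3d/d replicates 3 and 4 highest, and the edgeR and DESeq2 adjusted p-values were 0.279 and 0.00500. Bmp2, which encodes a growth factor of decidualization, had 18.8 ± 4.01 and 32.3 ± 4.14 CPM (SD, n = 4 per label), with no overlap, a log2 fold change of 0.78 (SE 0.17), and edgeR and DESeq2 adjusted p-values of 0.195 and 0.00573. Without Erbb3d/d replicate 2 edgeR's adjusted p for Bmp2 was 0.0475.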

How the data were processed

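RNA of uterine stromal cells was measured in 8 mouse libraries. Per the labels' protocols, RNA was polyadenylated, non-directional and read as pairs of 150 bp. The authors deposited 1 table of raw read counts per library, with no normalization. HISAT2, SAMtools, HTSeq and StringTie and the builds mm10 and GRCm38 are named in the submitters' processing notes, while the annotation and counting options are not given in the sources used here. Lines that name no gene, 5 per library with 70.9% to 73.0% of entries, were left out. Groups and replicate numbers came from the sample titles. No source says that replicates are separate animals, so p-values measure only the spread between these libraries.

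Counts were filtered with filterByExpr (14598 of 23420 genes), scaled by TMM and tested with edgeR 4.0.16 (glmQLFit, robust, and glmQLFTest; R 4.3.3), with Benjamini-Hochberg adjustment over all genes tested at 0.05. The log2 fold change is Erbb3d/d over Erbb3f/f. DESeq2 1.42.0 was an alternative. For single genes, log2(CPM + 0.5) was permuted over all 70 assignments of 4 and 4 libraries (exact, two-sided). Likeness used the same log2 values, standardised per gene. Exonic lengths are merged exons of GENCODE vM21 basic transcripts. Gene positions and upstream sequences (8 of the 10 genes had one) are from RefSeq GRCm38.p6. Exons shared with another gene in vM21 are given for Fgf2 and Fgfr3, and Fgf10 (1.68%, Gm16263), Fgfr1 (3.14%, Gm16159) and Fgfr2 (6.14%, Ctbp2) share less. The fits were tried on simulated counts with the same variability set for every gene, which says nothing about the spread of the real libraries. The 10 genes and all lists were chosen with earlier results of these data known. Named in each list are the genes called or, with none called, the 3 with the smallest p and the one with the largest mean. Erbb3, Hand2 and the 3 genes most like the member with the smallest p and the member with the largest mean are named too, and other genes were named after their values were seen. A gene that the rule names is not reported here.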

Additional observations from a re-analysis of the deposited data

Results flagged for a closer look

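Values set apart from the other libraries of their label were found in 2 of the 36 sets of 4 libraries that were looked at, where chance, at 1 in 20, gives 1.8. In Erbb3d/d replicate 3, Fgf1 had 102 CPM, against 28.1 CPM in the nearest library of that label. In Erbb3f/f replicate 1, Fgf18 had 0.584 CPM, from 6 reads, against 2.04 CPM in the nearest library of that label. Leaving that library out gave Fgf18 a log2 fold change of 1.48 (SE 0.47; edgeR adjusted p 0.492).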

How the results depend on the processing

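Among all genes, edgeR called 0, DESeq2 270, and edgeR with a replicate block 52. With the mean of each label removed, same-numbered libraries correlated at 0.2414, 0.1725, 0.0998 and 0.1517. Erbb3f/f replicates 1, 2 and 3 each correlated best with their own number and replicate 4 with Erbb3d/d replicate 3. No source states a pairing, so the main test did not take the numbers as pairs. These values do not settle whether the libraries are paired. Of the 10 ligands and receptors DESeq2 called 1, Fgf18 (1.77), and the block called 0. DESeq2 called 1 co-receptor, 2 feedback genes and 2 upstream regulators, and the block 1 feedback gene. These log2 fold changes turned sign. Fgf1 was 0.06 with the epithelial, 0.77 with the smooth muscle and 0.24 with the mesothelial covariate. Fgf7 was -0.21 with smooth muscle. Fgf9 was -0.11 with the epithelial and -0.56 with the stromal covariate, and -0.19 without Erbb3d/d libraries 3 and 4. Fgfr3 was 0 in DESeq2, 0.31 with the epithelial and 0.84 with the stromal covariate, 0.01 without both libraries numbered 3 and 0.6 without Erbb3d/d libraries 3 and 4. Fgfr4 was 0.13 with smooth muscle and 0.44 with stroma. List medians moved for other FGF genes (-0.41 with smooth muscle, 0.28 without both libraries numbered 3), heparan sulphate genes (0.11 with smooth muscle), feedback genes (0.22 with epithelium) and upstream regulators (0.01 with epithelium, -0.11 with smooth muscle, 0.06 with stroma, -0.02 without Erbb3d/d libraries 3 and 4). The cause was not tested. Leaving out each library in turn gave 0 to 259 called genes, the most without Erbb3d/d replicate 2, with 0 to 1 co-receptors, 0 to 2 feedback genes and 0 to 1 upstream regulators among them. In those fits Fgf1 ran from -0.96 to 0.39, Fgf2 from -0.08 to 0.4 and Fgfr3 from -0.45 to 0.23, and the medians from -0.28 to 0.17 (other FGF genes), -0.08 to 0.06 (heparan sulphate genes) and -0.39 to -0.17 (upstream regulators). Fgf10 stayed below 0, and Fgf18, Fgfr1 and Fgfr2 above 0, under every alternative run. For Fgf10 and Fgf18 the CPM ranges of the labels did not overlap, so leaving out libraries could hardly turn their sign. The stromal and mesothelial covariates and the joint removals were chosen with the data in view. Fgf2, Fgf18 and Fgfr4 rest on fewer than 40 reads in most libraries, which limits their precision.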
